A study of Arabidopsis thaliana with 54 samples.

Results

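GASA1 (AT1G75750) encodes a small secreted peptide of the gibberellin-regulated GASA family, and its transcript was 1 of 23997 rows in the table of this RNA-seq study of whole Arabidopsis thaliana seedlings. The gene was chosen by its locus identifier, with its levels over all 18 groups of the study already known, so those levels and the differences between them are given as a description without a test. Seedlings were treated with guvermectin (GV, a purine nucleoside, 10 µM), indole-3-acetic acid (IAA, an auxin, 1 µM), trans-zeatin (ZT, a cytokinin, 1 µM), epibrassinolide (eBL, a brassinosteroid, 1 µM) or gibberellic acid (GA3, a gibberellin, 1 µM), or were left as controls. RNA was taken after 5, 30 or 180 min, with 3 libraries in each of the 18 groups and 54 in all. The labels do not name the ecotype, the age of the seedlings or what the control seedlings received. Nor do they state whether the 3 replicates stem from independent cultures, so the spread between them, and every p-value built on it, may be technical. The dose of GV was higher than that of the hormones, so GV and hormone values stand side by side and are not matched.

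Gibberellin acts by binding its GID1 receptors, which leads to the breakdown of DELLA proteins, repressors of growth genes. Plants keep the hormone level in check by making less of the enzymes that activate it (gibberellin 20-oxidases and 3-oxidases) when signalling is high and more of those that inactivate it (2-oxidases). GASA peptides carry a signal peptide and a conserved cysteine-rich C-terminal domain, and several of their genes, GASA1 among them, are known as gibberellin-induced. Brassinosteroid is known to lower GASA1.

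GASA1 lies on the minus strand of chromosome 1, from 28441501 to 28442435 in the TAIR10.1 reference annotation, which placed 99.9% of the matched rows of the table at the same coordinates. Its 3 exons measure 226, 40 and 494 bases and sum to 760, which is also the length used in the table. A second RefSeq transcript starts its first intron at another base, with the first exon ending at 28442213 instead of 28442210, and the values do not tell the transcripts apart. The coding sequences of GASA1 (chr1:28441813-28442284, minus strand, spliced) and of GASA5 (chr3:638323-639011, minus strand, spliced), the other family member with a testable level, are shown because they hold the feature that defines the family. They were read from the RefSeq TAIR10.1 genome and are printed 5′ to 3′, with the cysteine codons in capitals.
GASA1 coding: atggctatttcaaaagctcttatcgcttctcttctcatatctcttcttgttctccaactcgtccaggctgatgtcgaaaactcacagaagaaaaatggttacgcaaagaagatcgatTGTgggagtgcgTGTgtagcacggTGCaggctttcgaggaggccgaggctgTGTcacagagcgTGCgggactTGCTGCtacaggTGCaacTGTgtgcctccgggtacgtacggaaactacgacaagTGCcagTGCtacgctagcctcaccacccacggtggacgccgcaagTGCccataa
GASA5 coding: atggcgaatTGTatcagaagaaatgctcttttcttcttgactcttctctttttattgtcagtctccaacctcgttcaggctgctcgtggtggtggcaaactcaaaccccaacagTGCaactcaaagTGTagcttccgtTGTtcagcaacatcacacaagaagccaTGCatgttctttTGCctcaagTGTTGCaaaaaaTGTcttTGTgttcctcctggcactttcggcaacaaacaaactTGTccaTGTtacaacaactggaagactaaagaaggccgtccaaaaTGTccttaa
GASA1 has 98 codons, and its 12 cysteine codons all lie in the last 62. GASA5 has 97 codons and 13 cysteine codons, of which 12 lie in the last 62, each at the same place as in GASA1. Over those 62 codons 43.5% of the bases of the pair are the same, so the cysteines are kept in a sequence that otherwise differs at most bases. All 15 family members have 12 cysteine codons in their last 62 codons, although in GASA10, GASA14 and GASA15 not all of them fall at the places of GASA1. GASA11 is the member nearest to GASA1 in these codons, with 79.0% of bases the same.

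The 250 bases before the annotated start of GASA1 (chr1:28442436-28442685, minus strand, RefSeq TAIR10.1) are shown because the gene's level differed with most of the hormones. Capitals mark the TATAAA motif on either strand.
GASA1 promoter: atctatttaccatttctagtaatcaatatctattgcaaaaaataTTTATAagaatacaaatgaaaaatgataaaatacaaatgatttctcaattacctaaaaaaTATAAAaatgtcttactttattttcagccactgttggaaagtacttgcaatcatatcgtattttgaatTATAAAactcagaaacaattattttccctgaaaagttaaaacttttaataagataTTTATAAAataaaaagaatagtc
TATAAA occurred 5 times, with 1 overlapping pair of matches on opposite strands, and at least once in 47.4% of 27438 protein-coding promoters of the same length. The window has a GC content of 20.8%, and E-boxes (CANNTG) occurred 2 times, against a share of 55.3% of promoters with at least 1. The evening element AAATATCT occurred once, on the strand opposite to the gene and overlapping a TATAAA match, and is present in 4.79% of promoters. On both strands the window held no gibberellin-response motif TAACAAA (present in 16.1% of promoters), no TTTGTC (24.1%), no brassinosteroid motif CGTGTG (5.37%) or CGTGCG (1.57%), no auxin motif TGTCTC (10.9%), no cytokinin-response core AGATT (63.7%) and no G-box CACGTG (6.49%). The motifs AAATCT (34.4%), TTGACC (12.2%), TGGGCC (13.7%) and GGATA (28.8%) were not found either. Absence says only that these letters are not in this window.

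Reads behind GASA1 were many: 11149 to 63791 per library, with a median of 28771.5, so counting alone would give a coefficient of variation (SD over mean) of 0.396% to 0.947%. Levels are taken to be FPKM, reads scaled by gene length and by library depth. Every value was a whole number of reads once scaled by gene length and by a factor fitted for each library. Another unit that scales reads by gene length and library would pass that check too. If the values are FPKM, the implied depth ranged between 17.8 and 23.8 M reads, and the rows of the table held 27.3% to 41.9% of them. Genes with mean levels between 10.5 and 344 FPKM were not analysed here. GASA1 ranked 13 of all rows by mean level. Libraries of a group correlated at 0.971 or above over the tested genes, except eBL 30 min replicate 3, which reached 0.867 and 0.871 with its group. At 180 min, the group means of GA3, ZT and eBL correlated with each other at 0.930 to 0.962 and those of control, GV and IAA at 0.949 to 0.976, but at 0.903 to 0.945 across the 2 sets. At 30 min the values were 0.935 to 0.964 and 0.970 to 0.982 within the sets, and 0.928 to 0.957 across them. At 5 min those across the sets ran from 0.927 to 0.987. The highest of these was above any within a set, so the sets were not apart at 5 min. The labels name no batch that matches the sets. The order of the deposited columns does match them at 30 and 180 min. There GA3, eBL and ZT stand in a run apart from control, GV and IAA, whereas the columns of 5 min all stand together. What this order reflects is not given. At 30 and 180 min comparisons of GA3, ZT or eBL with the control cross the sets, so compound and set cannot be told apart. That holds too for their effects at 180 min less those at 5 min. Values of GASA1 within each set are therefore also given below.

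At 5 min GASA1 was lower with all 5 compounds than in the control, and lowest with GA3. With GA3 the libraries had 1046, 1033 and 1054 FPKM, against 3129, 3135 and 2970 FPKM in the control at 5 min. This is a mean of 1044 ± 10.4 FPKM, against 3078 ± 93.7 FPKM in the control (SD, n = 3 each), a difference of -1.56 ± 0.03 (SE) on the scale of log2(FPKM + 1) and the lowest of the 15 differences from control. The GA3 level was 0.339 of the control level, and no library came near the control range. With ZT the 3 libraries had 1761, 1796 and 1844 FPKM, a difference of -0.77. GV gave 1961, 2069 and 2084 FPKM, a difference of -0.59. With eBL the level was 2110, 2103 and 2182 FPKM, a difference of -0.53. IAA stood closest to the control in the deposited FPKM, with 2597, 2758 and 2730 FPKM, a difference of -0.19, yet here too every treated library was below every control library. In these values the 5 compounds did not overlap each other, in the order IAA, eBL, GV, ZT and GA3, high to low. After quantile normalization every treated library was still below the control, with ZT and GA3 lowest, but IAA (1930 to 2003 FPKM, a difference of -0.41), GV (1882 to 2089 FPKM, -0.40) and eBL (1930 to 2280 FPKM, -0.33) overlapped, so the order of these 3 depends on the scaling. All 5 differences share the same 3 control libraries, and a control that stood high cannot be told apart from a lower level with every compound.

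At 30 min the picture split. With GA3 the libraries had 2783, 2822 and 2810 FPKM, and with ZT 2897, 2644 and 2726 FPKM, against 1788, 2004 and 1993 FPKM in the control at 30 min. Both treated groups lay above all control libraries, by 0.54 ± 0.05 with GA3 and 0.52 ± 0.07 with ZT (SE, log2 scale), and they overlapped each other. IAA was below the control, with 1499, 1572 and 1472 FPKM, a difference of -0.35 ± 0.06. GV had 1852, 1937 and 2280 FPKM, which overlapped the control range (0.07 ± 0.11), and without GV 30 min replicate 3 the difference was -0.024.

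The eBL group at 30 min held the 1 library that stood apart. Its 3 replicates had 1913, 1803 and 3268 FPKM, so that replicate 3 was 1.76 times the mean of the other 2. The group mean was 2328 ± 816 FPKM with all 3 libraries, a difference from control of 0.22 ± 0.28, and 1858 ± 78.0 FPKM (n = 2) without replicate 3, a difference of -0.052 ± 0.07. Either way the range overlapped the control in the deposited FPKM. After quantile normalization it did not: the eBL libraries lay at 2367 to 3008 FPKM, against 1458 to 1569 FPKM in the control, a difference of 0.79. The photosynthetic markers of replicate 3 differed from the other 2 eBL libraries in both directions. LHCB1.3 was lower, at 1626 FPKM, against 13536 and 11704 FPKM, as were LHCB1.1, LHCB1.2 and RBCS3B, whereas RBCS1A was higher, at 13035 FPKM, against 8024 and 7394 FPKM, as were RBCS2B and LHCA1. Their part in the level of GASA1 was not tested.

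At 180 min GASA1 was highest with ZT, which was also the highest group of the study. The ZT libraries had 4021, 4249 and 4024 FPKM, against 1232, 1176 and 1133 FPKM in the control at 180 min. The mean was 4098 ± 131 FPKM with ZT and 1180 ± 50.1 FPKM in the control (SD, n = 3 each), 3.47 times as high, or 1.80 ± 0.04 on the log2 scale. With GA3 the libraries had 1820, 2336 and 2272 FPKM, a difference of 0.85 ± 0.12. Every GA3 library was above every control library, and replicate 1 was the lowest of the 3. GV gave 1507, 1574 and 1580 FPKM, a difference of 0.40 ± 0.04. With eBL the libraries had 1358, 1244 and 1387 FPKM and lay just above the control range, with a difference of 0.17 ± 0.06. IAA went the other way, with 701, 806 and 811 FPKM, a difference of -0.61 ± 0.08, and its mean of 772 ± 62.2 FPKM was the lowest of all 18 groups. In bulk seedlings fewer cells that express the gene and less of its RNA per cell cannot be told apart.

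**Figure D1:**
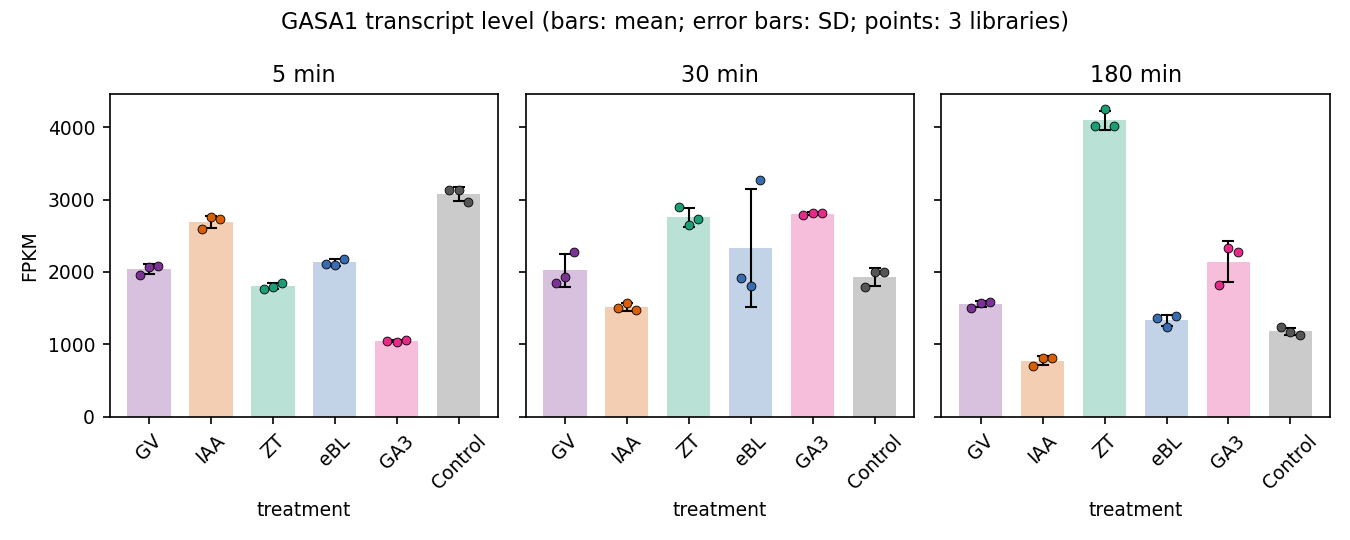
GASA1 level in FPKM (vertical axis, starting at 0) for each compound and the control (horizontal axis) at 5, 30 and 180 min; bars are means of 3 libraries, error bars SD, points single libraries. At 5 min every compound stood below the control at 3078 FPKM, with GA3 at 1044 FPKM, whereas at 180 min ZT at 4098 FPKM and GA3 at 2143 FPKM stood above the control at 1180 FPKM.

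The control itself was lower at each later time: its mean was 3078 FPKM at 5 min, 1928 FPKM at 30 min and 1180 FPKM at 180 min, with no overlap between times. The later time differed from the earlier one by -0.68 ± 0.06 between 5 and 30 min and by -0.71 ± 0.06 between 30 and 180 min (SE, log2 scale). IAA followed the same course at lower levels, at 2695, 1514 and 772 FPKM over the 3 times. ZT ran opposite to the control, at 1800, 2756 and 4098 FPKM, each step without overlap. GA3 gave the largest difference between 5 and 30 min, with 1044 FPKM at 5 min and 2805 FPKM at 30 min, 2.69 times as high, and then 2143 FPKM at 180 min. GV hardly differed between 5 and 30 min (2038 and 2023 FPKM, overlapping) and had 1554 FPKM at 180 min. GV at 180 min was thus lower than GV at 5 min and still above its own control, since the control was lower by more.

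Ordered by mean, the 18 groups spanned 5.31-fold, with ZT at 180 min first, the control at 5 min next and GA3 at 5 min and IAA at 180 min at the low end. Of the 17 pairs of neighbours in that order, 9 had overlapping libraries. The groups from GA3 at 30 min (2805 FPKM) through ZT at 30 min, IAA at 5 min, eBL at 30 min and GA3 at 180 min to eBL at 5 min (2132 FPKM) formed 1 chain of overlaps. A further chain ran through GV at 5 min, GV at 30 min, the control at 30 min and ZT at 5 min (1800 FPKM), and GV at 180 min overlapped IAA at 30 min. The chains link neighbours only and are not separate levels. The libraries of eBL at 30 min (1803 to 3268 FPKM) and GA3 at 180 min (1820 to 2336 FPKM) also overlapped groups of the further chain. If the values are FPKM, GASA1 made up 0.311% of all reads with ZT at 180 min, where it was the row with rank 3. With IAA at 180 min the share was 0.0587%, and its rank was 50. Within a group the coefficient of variation was 0.724% to 13.1%, and 35.0% in eBL at 30 min.

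Within the set of GA3, ZT and eBL, GA3 and ZT overlapped at 30 min (2805 and 2756 FPKM), and both exceeded the 2 concordant eBL libraries by 0.59 and 0.57 on the log2 scale. At 180 min GA3 was lower than ZT, 2143 against 4098 FPKM (-0.94), and higher than eBL, at 1329 FPKM (0.68). Within the set of control, GV and IAA, GV exceeded IAA by 0.41 at 30 min and by 1.01 at 180 min, without overlap. Within its own set the level with ZT at 180 min was 3.08 times that with eBL. These are values by which the gene was chosen, and the part of the sets in them was not tested.

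Set among other abundant transcripts, GASA1 lay near the ends in several comparisons. Among the 209 rows with the largest means, the difference of GASA1 with eBL at 5 min (-0.53) was the lowest of all, where the median of these rows was -0.09. With GV at 5 min it ranked 2 from the lowest and with GA3 at 5 min 3 from the lowest, where the middle row differed by -0.14 and -0.24. With ZT at 180 min GASA1 ranked 4 from the highest (1.80, against a median of -0.11). With GV at 30 min (0.07) it lay inside the bulk of these rows, 74 from the lowest. These ranks come from the values that chose the gene and describe their size only.

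The other GASA genes were mostly near 0. Of the 15 family members 10 were in the table, and 2 reached the filter for testing, 1 FPKM or more in the mean of any group: GASA1 and GASA5. GASA12 and GASA15 were listed at 0 in all 54 libraries. GASA2, GASA3, GASA8, GASA10, GASA11 and GASA13 had group means below 1 FPKM, with GASA3 highest at 0.983 FPKM with IAA at 180 min. GASA4, GASA6, GASA7, GASA9 and GASA14 were not analysed here.

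GASA5 (AT3G02885), known in Arabidopsis as a brake on flowering, differed from GASA1 in level and course. Its group means ran between 0.766 FPKM with GV at 5 min and 10.7 FPKM with IAA at 180 min, where GASA1 was lowest. The tests used limma on log2(FPKM + 1) over 10622 genes, and a change was called at a Benjamini-Hochberg adjusted p under 0.05. With IAA at 180 min the GASA5 libraries had 12.3, 11.0 and 8.76 FPKM, against 2.86, 2.39 and 1.77 FPKM in the control. GASA5 rose there by 1.81 ± 0.19 (SE, limma adjusted p = 4.81e-10), in a comparison where 11.2% of tested genes rose. It also rose with IAA at 5 min by 0.85 (limma adjusted p = 0.00135; 6.86% of genes rose), with GV at 180 min by 0.97 (limma adjusted p = 0.000339; 5.59%) and with ZT at 180 min by 0.55 (limma adjusted p = 0.0166; 17.1%).

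With GA3 GASA5 did not rise at any time. At 180 min its GA3 libraries had 1.37, 1.31 and 0.641 FPKM, against 2.86, 2.39 and 1.77 FPKM in the control, and it fell by 0.67 (limma adjusted p = 0.00392; 23.6% of genes fell), whereas GASA1 was higher. GASA5 fell too with GV at 5 min by 0.73 (limma adjusted p = 0.0065; 3.16% of genes fell) and with eBL at 30 min by 0.85 (limma adjusted p = 0.000315; 20.6%), a call that is lost when only the 2 compared groups enter the fit. Its eBL libraries at 30 min had 1.14, 1.06 and 0.730 FPKM, all below the control at 3.65, 2.09 and 2.12 FPKM, so the library that stood apart for GASA1 did not stand high for GASA5. The called changes of GASA5 with GV at 5 min, ZT at 180 min and GA3 at 180 min each missed the threshold when 1 library was left out. These were Control 5 min replicate 3 (-0.62) or GV 5 min replicate 2 (-0.62), Control 180 min replicate 3 (0.42) or ZT 180 min replicate 2 (0.39), and GA3 180 min replicate 3 (-0.50). Over the 18 group means the Pearson correlation of GASA5 with GASA1 was -0.24, on points that share libraries and depth.

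**Figure D2:**
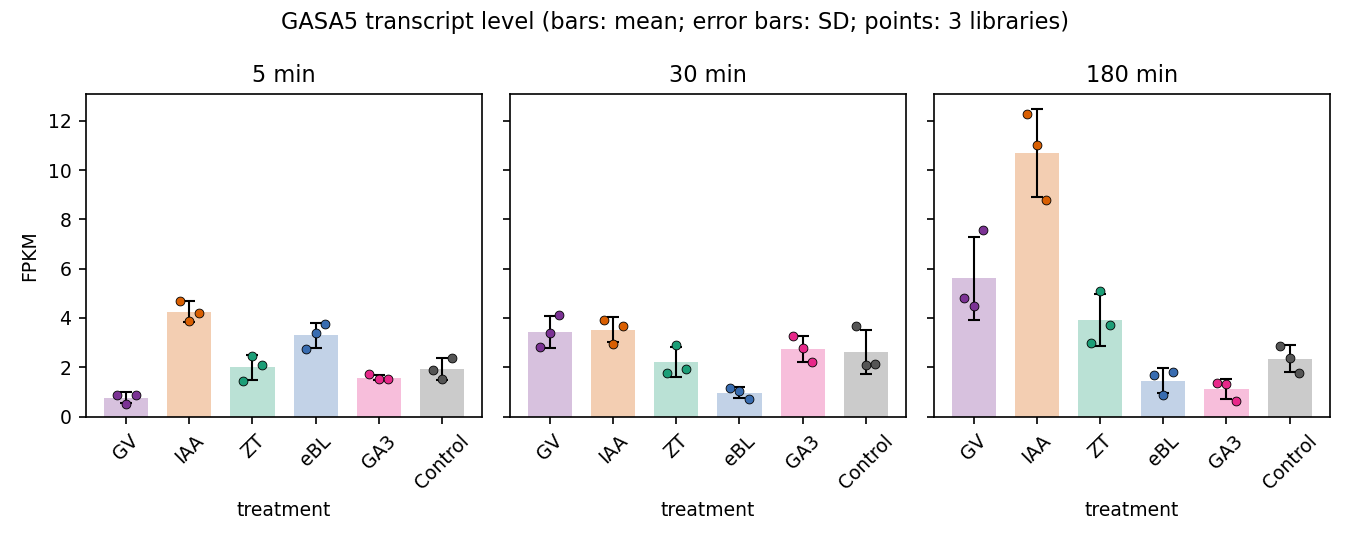
GASA5 level in FPKM (vertical axis, starting at 0) for each compound and the control (horizontal axis) at 5, 30 and 180 min; bars are means of 3 libraries, error bars SD, points single libraries. IAA at 180 min stood highest at 10.7 FPKM, against 2.34 FPKM in the control, while GASA1 had its lowest mean in that group.

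The gibberellin pathway was followed through a list of 36 genes, of which 26 were in the table and 16 passed the filter: 6 for synthesis, 5 for inactivation, 2 for perception and 3 DELLA genes. With GA3 at 5 min, where GASA1 was at 0.339 of its control, 8 of the 16 rose and 0 fell, against 23.7% and 11.0% of all tested genes. The 8 were 4 synthesis genes, all 3 DELLA genes and the 2-oxidase gene GA2OX6. After quantile normalization the counts were 6 and 2, against 16.8% and 19.8% of all genes under that scaling.

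GA3OX1, a 3-oxidase that makes active gibberellin, had 8.99, 9.93 and 7.28 FPKM with GA3 at 5 min, against 2.06, 2.09 and 2.73 FPKM in the control, and rose by 1.56 ± 0.14 (SE, limma adjusted p = 5.69e-12). Its sister GA3OX2 had 6.32, 7.48 and 7.32 FPKM, against 0.342, 0.555 and 0.505 FPKM, and rose by 2.45 ± 0.17 (limma adjusted p = 4.92e-16). RGL2, a DELLA repressor known from seed germination, had 7.04, 6.07 and 6.68 FPKM, against 1.23, 1.11 and 1.46 FPKM, and rose by 1.75 ± 0.13 (limma adjusted p = 5.28e-15). For these 3 genes GA3 was also higher than each of GV, IAA, ZT and eBL at 5 min, by 0.94 (GA3OX1 against ZT) to 2.85 (GA3OX2 against eBL), with limma adjusted p of at most 1.07e-06. In the same group GASA1 was below those 4 compounds. The control itself was higher at 180 min than at 5 min, by 2.51 for GA3OX2, 1.79 for RGL2 and 0.98 for GA3OX1. GA3 means at 5 min were near the control means at 180 min for GA3OX2 (7.04 and 7.38 FPKM) and RGL2 (6.59 and 6.82 FPKM). For GA3OX1 the GA3 mean was above that control (8.73 and 5.47 FPKM). GA20OX1, a 20-oxidase, rose by 0.76 and RGL3, a DELLA gene, by 0.87 with GA3 at 5 min. In the control they were higher at 180 min than at 5 min by 0.79 and 0.76. The calls for GA2, which encodes ent-kaurene synthase (0.37), and for the DELLA gene RGL1 (0.43) are lost when a single library is left out, among them Control 5 min replicate 2 (0.29 for GA2 and 0.38 for RGL1).

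With GA3 at 30 min GASA1 was above its control, while 1 of the 16 pathway genes rose and 7 fell, against 14.4% and 16.8% of all genes. The falls included GA3OX1, with 2.32, 2.09 and 2.39 FPKM, against 5.70, 5.55 and 5.34 FPKM in the control (-1.0 ± 0.14, limma adjusted p = 6.17e-07). GA3OX2 fell by 0.71, RGL2 by 0.97, GA2 by 0.59 and GA20OX1 by 0.58. The gene that rose was CYP714A1, a P450 that inactivates gibberellin, by 0.43, and that call is lost without any one of 4 libraries, as without Control 30 min replicate 1 (0.35).

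With GA3 at 180 min 5 of the 16 rose and 7 fell, against 17.3% and 23.6% of all genes. GA3OX1 fell by 0.81 and GA3OX2 by 0.63, and GID1B, a gibberellin receptor gene, fell by 0.50. RGL1 rose by 0.68, GA2OX6 by 0.70, CYP714A1 by 0.73 and RGL3 by 0.39, the last of which missed the threshold without Control 180 min replicate 3 (0.31). RGL2 had 7.55, 6.53 and 7.83 FPKM, against 6.61, 7.38 and 6.49 FPKM in the control, which overlapped. The effect of GA3 at 180 min less that at 5 min, tested as an interaction in limma, was -2.37 for GA3OX1 (adjusted p = 1.50e-12), -3.09 for GA3OX2 (adjusted p = 4.66e-14) and -1.66 for RGL2 (adjusted p = 6.48e-10). These values hold the course of the control too. Between 5 and 180 min control means went from 1.27 to 6.82 FPKM for RGL2 and 0.467 to 7.38 FPKM for GA3OX2. With GA3, RGL2 had 6.59 and 7.30 FPKM and GA3OX2 7.04 and 4.39 FPKM. GA3OX1 had 8.73 and 2.71 FPKM with GA3, against 2.30 and 5.47 FPKM in the control. Opposite to these interactions, GASA1 had 2.41 between its differences of -1.56 at 5 min and 0.85 at 180 min, which was not tested.

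With ZT at 180 min, where GASA1 was at its highest, 3 of the 16 rose and 7 fell, against 17.1% and 24.7% of all genes. GA3OX1 had its lowest group mean there, with 1.33, 2.16 and 1.88 FPKM, against 4.83, 5.64 and 5.95 FPKM in the control, and fell by 1.22 ± 0.14 (limma adjusted p = 3.35e-09). GA3OX2 fell by 2.21, RGL3 by 0.82, GA2OX8, a 2-oxidase gene, by 0.70 and RGL2 by 0.68. With IAA at 180 min, where GASA1 was at its lowest, 8 rose and 0 fell, against 11.2% and 6.48% of all genes, and 7 and 1 after quantile normalization, against 8.79% and 9.40%. At an unadjusted p under 0.05 the limma counts were 9 and 1 there, and 8 and 0 with GA3 at 5 min. The share of all genes at that unadjusted threshold was not counted, so these counts have no background beside them. With IAA at 180 min GA3OX2 had 17.4, 15.7 and 15.6 FPKM, against 6.75, 7.89 and 7.49 FPKM in the control. RGL2 had 12.8, 13.5 and 13.2 FPKM, against 6.61, 7.38 and 6.49 FPKM. Both rose, by 1.04 and 0.86, and GA2OX6 and GA2OX8 rose by 1.39 and 1.12.

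In the other comparisons the pathway counts were smaller or mixed. At 5 min 2 genes rose and 0 fell with GV (7.82% and 3.16% of all genes), 1 rose and 1 fell with IAA (6.86% and 5.29%), 3 rose and 0 fell with ZT (19.5% and 8.02%), and 0 passed with eBL in limma (2.27% and 1.07%), where 2 were higher and 1 lower at an unadjusted p under 0.05. Those unadjusted limma counts were 4 and 0 with GV and 3 and 0 with ZT at 5 min, and 0 and 5 with GV and 6 and 1 with IAA at 30 min. For the unadjusted counts the share of all genes was not counted, so they cannot be set against a background. At 30 min 0 rose and 2 fell with GV (1.51% and 3.48%), 4 rose and 0 fell with IAA (7.16% and 2.66%), 4 rose and 6 fell with ZT (19.1% and 19.5%), and 3 rose and 7 fell with eBL (23.1% and 20.6%). Without eBL 30 min replicate 3 the last counts were 2 and 3, against 21.2% and 16.5% of all genes. At 180 min 1 rose and 3 fell with GV (5.59% and 3.58%), and 5 rose and 4 fell with eBL (16.2% and 21.8%). GA2OX2, a 2-oxidase gene that is most abundant with ZT at 30 min (4.76 FPKM), was among those called in both directions.

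**Figure D3:**
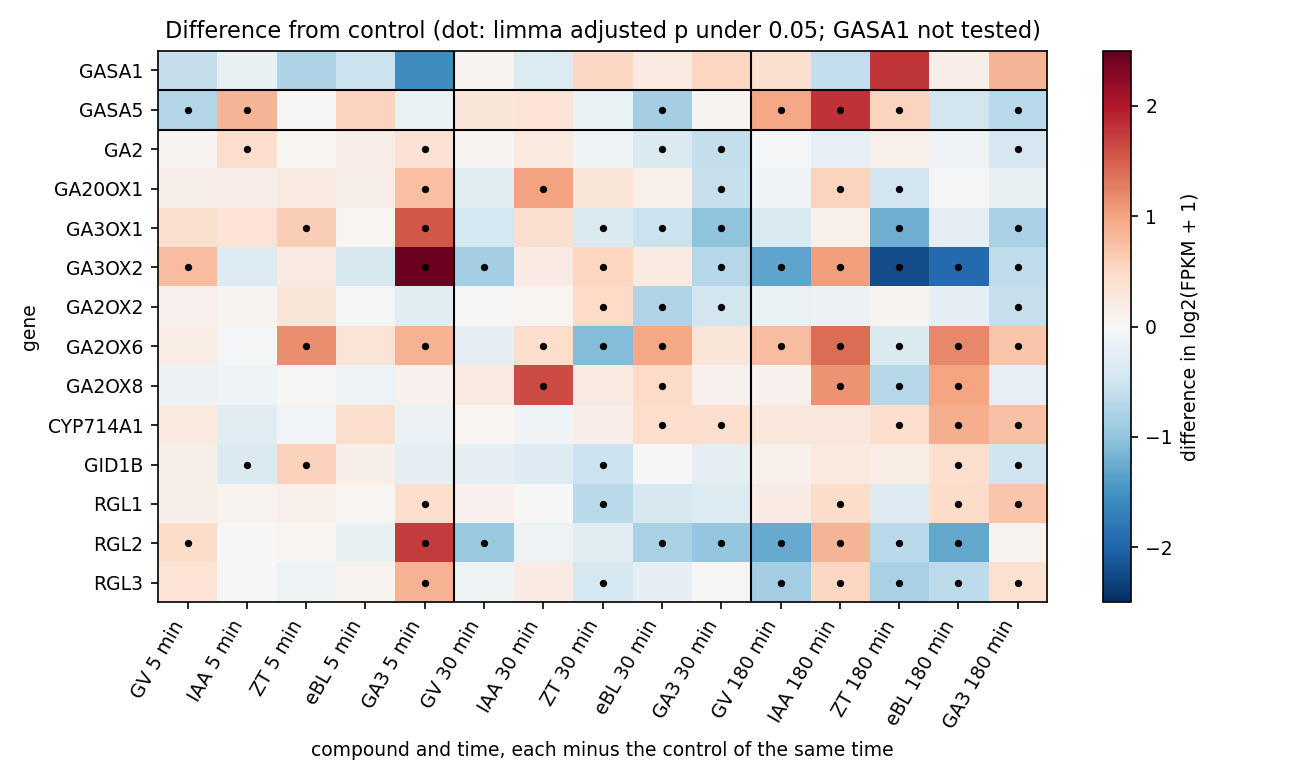
Difference from the control of the same time in log2(FPKM + 1) (colour) for GASA1, GASA5 and the 12 gibberellin pathway genes with the smallest adjusted p (rows) with each compound at 5, 30 and 180 min (columns); dots mark a limma adjusted p under 0.05, and GASA1 was not tested. With GA3 at 5 min GASA1 was at -1.56 while GA3OX2 rose by 2.45, and with ZT at 180 min GASA1 was at 1.80 while GA3OX2 fell by 2.21.

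Over the 18 group means, GASA1 and GA3OX1 ran in opposite directions, with a Pearson correlation of -0.82 and a Spearman correlation of -0.85. These are descriptions over points that share libraries, controls and depth. The value for GA3OX2 was -0.72, for GA2OX8 -0.69, for RGL3 -0.65, for GA20OX1 -0.64, for RGL1 -0.63 and for RGL2 -0.59. Of the 16 pathway genes 12 had a negative and 4 a positive correlation with GASA1, with a median of -0.35. Over 5824 genes of at least 5 FPKM in their highest group the median was -0.06 and the lower quartile -0.38. Not all of the 16 reach that level, so the medians are not over matched genes. The share of all genes with a negative correlation was not counted.

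The gene whose course was most like GASA1 was AT2G05540, of the glycine-rich protein family, with a Pearson correlation of 0.91 over the 18 group means and 0.87 over the 54 libraries. It had 838, 701 and 737 FPKM with ZT at 180 min, against 417, 394 and 424 FPKM in the control. It had 293, 279 and 295 FPKM with GA3 at 5 min, against 651, 698 and 643 FPKM in the control. Its lowest group was thus GA3 at 5 min and its highest ZT at 180 min, whereas GASA1 was lowest with IAA at 180 min. In eBL at 30 min it had 436, 462 and 1124 FPKM, so the same replicate 3 was high as for GASA1. Without that library the correlation was 0.90.

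The next in rank were AT2G25770 (0.90), a protein of the polyketide cyclase and lipid transport superfamily, AT1G75730 (0.85), SCPL2 (0.85), a serine carboxypeptidase-like protein, AT3G60850 (0.85) and GRXS7 (0.84), of the thioredoxin superfamily. They were followed by MORC1 (0.84), a protein known for pathogen recognition, BCB (0.83), a blue copper-binding protein, AT1G30760 (0.83), of the FAD-binding berberine family, and a row without annotation (0.82). Of the 5824 genes 16 exceeded 0.8 and 78 lay below -0.8, so among these genes courses opposite to GASA1 were more frequent than courses like it. Of them 208 were rows with the largest means and the rest were low, since genes between 10.5 and 344 FPKM were not analysed. The most opposite were AT3G60070 (-0.91), a major facilitator superfamily protein, the receptor-like kinase AT5G67280 (-0.89), BRXL4 (-0.89), RDL3 (-0.88), a cysteine protease family member, and ABCI21 (-0.87). All 5 of them had their highest mean with IAA at 180 min, the group where GASA1 was lowest. This follows in part from how they were picked, by correlation over the same group means. Among the 209 most abundant rows the most alike after AT2G05540 and BCB were BCAT2 (0.80), a branched-chain amino acid transaminase, AT3G15450 (0.80) and MEE14 (0.79).

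**Figure D4:**
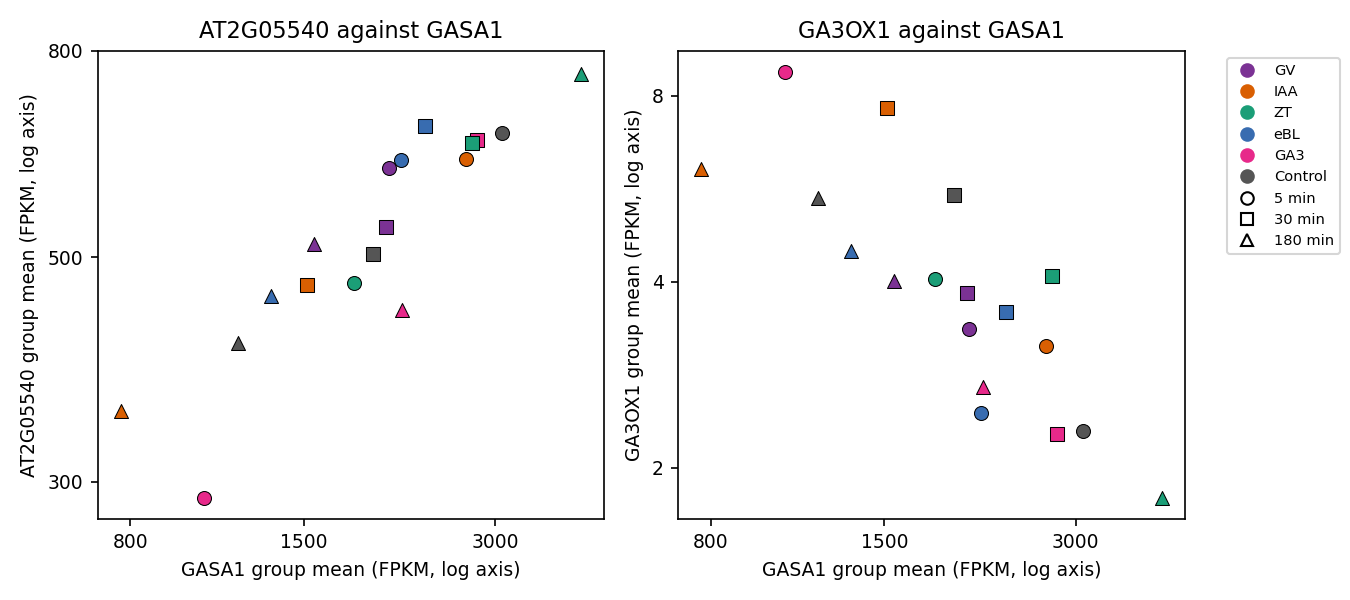
Group means in FPKM (log axes) of AT2G05540 (left) and GA3OX1 (right) on the vertical axis against GASA1 on the horizontal axis, with 1 point per group, coloured by compound and shaped by time. AT2G05540, picked for its likeness to GASA1 over these means, was high where GASA1 was high (Pearson correlation 0.91), and GA3OX1 was low there (-0.82).

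AT1G75730, an uncharacterized gene that ranked 3 in likeness, is the nearest protein-coding neighbour of GASA1. It lies on the same strand, 1665 bases beyond the 3′ end of GASA1, from 28435625 to 28439835 on chromosome 1. Its level is far lower: with ZT at 30 min, its highest group, it had 18.1, 19.7 and 17.5 FPKM, against 8.05, 5.80 and 7.16 FPKM in the control. With GA3 at 5 min it had 5.06, 5.35 and 5.70 FPKM, against 12.2, 11.3 and 13.7 FPKM in the control, so it was below the control where GASA1 was. Between the genes lies the tRNA gene AT1G75740, which was listed at 0 in every library. AT1G75760, 4196 bases away on the other side, was not analysed here.

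Markers of seedling parts were set beside GASA1. All 6 root genes of the list were in the table, and none was at 0 in all libraries of a group. Their summed level was 29.8 to 30.5 FPKM per library with GA3 at 5 min, against 8.79 to 11.0 FPKM in the control at 5 min, with 5 of the 6 means above the control, in the group where GASA1 was lowest for its time. With ZT at 5 min, where GASA1 was also low, the sum was 2.90 to 3.65 FPKM, with all 6 means below the control. At 180 min the mean root sum was 6.17 FPKM in the control. It was 23.2 FPKM with GA3, with all 6 means above the control, and 4.71 FPKM with ZT, with 3 above and 3 below. GASA1 was above its control in each of these 2 groups. Of the 8 photosynthetic genes 7 were in the table, and their sum was 27063 to 30237 FPKM with ZT at 180 min and 23894 to 24414 FPKM with IAA at 180 min, against 39350 to 40525 FPKM in the control at 180 min. At 180 min it was thus below the control both where GASA1 was highest and where it was lowest. At 5 min the mean photosynthetic sum was 42724 FPKM in the control. It was 39344 FPKM with GV, 35253 FPKM with ZT, 37346 FPKM with eBL and 33347 FPKM with GA3. It was thus below the control together with GASA1 and lowest with GA3, where 2 of the 7 means were nonetheless above the control. With IAA it was above, at 48486 FPKM. At 30 min it was 34086 FPKM with GA3 and 33446 FPKM with ZT, against 51518 FPKM in the control, where GASA1 was above its control. With IAA it was 49325 FPKM, below the control as GASA1 was. It was 56578 FPKM with GV and 27035 FPKM with eBL, where GASA1 overlapped the control. The 7 seed genes, all in the table, summed to group means of 2.10 to 34.3 FPKM, and AT2S1 and AT2S4 were at 0 in 23 and 24 of the 54 libraries. Values of the near-identical LHCB1 and RBCS copies are uncertain, because reads may be split between them. The part of these markers in the level of GASA1 was not tested.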

How the data were processed

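Whole-seedling RNA of 54 libraries in 18 groups of 3 was sequenced. The authors deposited 1 table of values per library, and its header names no unit. The deposited values were taken as FPKM. After scaling by gene length and by a fitted factor per library, 100% of them were whole reads within a tolerance of 0.05 reads. Other units scaled by gene length and library would pass this check too, so it does not settle the unit. The submitters' processing notes name Bowtie2 2.2.3 and the TAIR10 build. How reads were counted, and whether strand was used, is not given in the sources used here; antisense reads cannot be told apart. Columns were matched to groups by compound, time and number; the GV columns were the only ones left over, and all GV values depend on this assignment. There were 0 unmatched columns. Of 24000 lines 3 were damaged, and 23498 of 23997 rows matched a RefSeq locus.

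GASA1 was chosen with its values known, and the gene lists and tests were chosen with earlier results of these data known. Limma 3.58.1 in R 4.3.3 (trend and robust settings) was fitted to log2(FPKM + 1) with 1 mean per group, over 10622 genes (1 FPKM or more in the mean of any group) and with 36 residual degrees of freedom. Fold changes on this scale understate the change of low genes. Benjamini-Hochberg adjusted p-values under 0.05 were called. The text names the family, the 12 pathway genes with the smallest adjusted p, the 10 genes most like GASA1, the 5 most opposite, the 5 most alike in the block of 209 largest means, and the neighbours. A few unranked values of marker genes are added. The steps were tested on simulated data. Alternatives were another pseudocount (0.1 FPKM), no filter, quantile normalization, median-of-ratios scaling, fits of the compared groups only, a replicate block and leaving out single libraries.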

Additional observations from a re-analysis of the deposited data

Results flagged for a closer look

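For GASA1 the difference from the control turned round between times with 4 compounds, with every library of the treated group on one side of every control library at the earlier time and on the other side at the later time. Between 5 and 180 min the differences from control lay 0.99 apart on the log2 scale with GV, 2.57 with ZT, 0.70 with eBL and 2.41 with GA3. Between 5 and 30 min they lay 1.29 apart with ZT and 2.10 with GA3. None of these was tested, since the gene was chosen with them in view, and all comparisons at a time share the same control libraries, whose GASA1 level was 3078 FPKM at 5 min and 1180 FPKM at 180 min.

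In 8 pairs of a family or pathway gene and a compound, over 6 genes, the called effects at 5 and 180 min had opposite signs, with a called interaction in limma. With GV these were RGL2 (effect at 180 min less effect at 5 min -1.72, adjusted p = 9.61e-10), GASA5 (1.70, adjusted p = 8.40e-06) and GA3OX2 (-2.10, adjusted p = 5.47e-09). With ZT they were GA2OX6 (-1.52, adjusted p = 7.05e-08) and GA3OX1 (-1.84, adjusted p = 7.35e-10). With GA3 they were GA3OX1 (-2.37, adjusted p = 1.50e-12), GA3OX2 (-3.09, adjusted p = 4.66e-14) and GA2 (-0.79, adjusted p = 9.21e-05). Each interaction also holds the course of the control. With GV, RGL2 had 2.11 and 2.27 FPKM at 5 and 180 min, against 1.27 and 6.82 FPKM in the control. GA3OX2 had 1.53 and 2.38 FPKM, against 0.467 and 7.38 FPKM. GASA5 had 0.766 and 5.61 FPKM, against 1.93 and 2.34 FPKM. GA2 had 2.10 and 2.11 FPKM with GA3, against 1.41 and 3.17 FPKM. In the other pairs the treated mean was lower at 180 min than at 5 min. Called interactions were common over all 10622 tested genes. They were 456 up and 580 down with GV, 1414 and 2946 with ZT, and 1338 and 2911 with GA3. The share of all genes with opposite called effects was not counted, so the 8 pairs have no background beside them. The call of GA2OX6 with ZT at 180 min is lost without any 1 of 5 single libraries, as without Control 180 min replicate 1 (-0.35), and the calls of RGL2 and GASA5 with GV at 5 min are lost without GV 5 min replicate 2 (0.41 and -0.62).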

How the results depend on the processing

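Quantile normalization over the tested genes moved GASA1 most, by up to 0.57 on the log2 scale. Its differences from control were then -0.40 (GV), -0.41 (IAA), -0.60 (ZT), -0.33 (eBL) and -1.20 (GA3) at 5 min, -0.052 (GV, reversed), -0.18 (IAA), 1.00 (ZT), 0.79 (eBL) and 0.91 (GA3) at 30 min, and 0.46 (GV), -0.43 (IAA), 2.01 (ZT) and 1.09 (GA3) at 180 min. Median-of-ratios scaling gave -0.84 (ZT), -0.57 (eBL) and -1.66 (GA3) at 5 min and 1.89 (ZT) at 180 min. Quantile normalization also left the eBL libraries at 30 min all above the control and made IAA, GV and eBL overlap at 5 min. The cause was not tested. Leaving out 1 library at a time gave -0.024 to 0.13 for GV at 30 min and -0.052 to 0.38 for eBL at 30 min, the lowest without replicate 3 of each group, and kept the sign in the other 13 comparisons.

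Without the filter on low values the GASA family calls numbered 19 (5 up and 14 down) instead of 7 (4 and 3), with more of the low genes tested. The added genes had group means below 1 FPKM. Over all genes and the 15 comparisons the calls were then 21590 up and 18492 down, against 20467 and 18248. Leaving out single libraries gave 6 to 8 family calls and 86 to 97 pathway calls, against 92. The share of all genes is not given beside these counts. Of the 99 calls of both lists, 89 remained with a pseudocount of 0.1, 89 without the filter, 93 after quantile normalization, 95 after median-of-ratios scaling and 88 in fits of the compared groups only, and 0 reversed. For eBL at 30 min, a fit of the 2 groups alone called 607 genes up and 306 down, against 2450 and 2186, and 1 and 0 pathway genes, against 3 and 7. For GV at 30 min it called 77 up and 240 down, against 160 and 370. Without eBL 30 min replicate 3, GV called 1101 up and 507 down at 5 min instead of 831 and 336, and eBL 431 and 223 instead of 241 and 114. Quantile normalization moved the split of calls with GA3 at 5 min to 1785 up and 2101 down, against 2514 and 1170. For ZT at 5 min it gave 1448 and 1668, against 2067 and 852. The replicate numbers do not pair the libraries, since 0 of 45 pairs of same-numbered libraries had deviations correlated over 0.1, and with the replicate block all 99 calls remained; a block cannot move a difference of group means in this balanced design, so GASA1 moved by 0. Of the 10 genes most like GASA1, 7 stayed among the top 10 over 54 libraries and 9 without eBL 30 min replicate 3.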
